A study of Mus musculus with 16 samples.

Results

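Open chromatin was set against acetylation of histone H3 at lysine 27 (H3K27ac) in wild-type T helper 2 (Th2) cells after the first 4 days of culture. The 2 DNase lists and the 2 H3K27ac lists labelled early Th2 WT were used, of the 16 lists of the series. Islands of an assay that overlapped or touched were merged, and merged islands that held an island of both lists were kept. This gave 33580 DNase sites (of 41624 found in either list) and 24095 H3K27ac regions (of 28589). The 16 lists hold 469755 islands in all.

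The cells were CD4 T cells of C57BL/6 mice with floxed Bcl11b alleles and CreERT2, a Cre recombinase that acts once 4-hydroxytamoxifen (4-OHT) is given. All 4 groups carried these alleles. Early WT cells were kept 4 days under Th2 conditions with no 4-OHT, and early KO cells had 4-OHT in that culture. Late cells were rested for 1 day in IL-2 after those 4 days and put through another 4 days under Th2 conditions, in which late KO cells received 4-OHT and late WT cells did not. No group kept the gene and had 4-OHT, so loss of Bcl11b, which encodes a DNA-binding regulator of T cell development, and exposure to 4-OHT cannot be told apart. In the labels the starting cells are naive, yet CD44high, a level typical of activated or memory cells, is given for the same sort. Markers of the cell type were not checked, because places are known here by position on the build mm9 and not by gene. Each group had 2 libraries of each assay, and nothing in the labels says that the 2 came from separate cultures or animals.

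DNase I cuts DNA where nucleosomes are missing or loose, which marks promoters, enhancers and insulators. H3K27ac is placed by the acetyltransferases CBP and p300 on the nucleosomes beside active promoters and enhancers. An active element is therefore usually an open site flanked by acetylated nucleosomes, while insulators and inactive enhancers can be open without the mark. The lists came from SICER, a caller that joins enriched windows of 200 bp into islands, here across gaps of up to 400 bp by the list names. Nothing finer than a window can be seen, and an island can hold windows that were not enriched. Read counts are not given in the lists, so the depth is unknown and a missing island says only that the list does not hold one.

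Most open sites of early WT cells touched acetylated chromatin, and a sizeable minority did not. Of the 33580 DNase sites, 17539 (52.2%) lay wholly inside an H3K27ac region, and 5470 (16.3%) lay at an edge, with bases both within and beyond a region. Another 1401 sites (4.17%) touched H3K27ac islands of 1 list but no region held by both. The other 9170 sites (27.3%) overlapped no H3K27ac island of either list and are called outside. H3K27ac regions covered 112.6 Mb, or 4.38% of the 2570.3 Mb between the first and last islands of each chromosome. By length, 73.9% of the DNase bases fell within H3K27ac regions, and 42.7% of the acetylated bases fell within DNase sites.

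Single libraries gave inside as the most common class, then outside, then edge, and the 2 DNase lists differed in width and in the share at an edge. The first DNase list held 37525 islands with a median width of 1000 bp, and the second 39736 islands with a median of 1400 bp. Of the islands of the first list, 57.7% lay inside islands of the first H3K27ac list and 58.7% inside those of the second. Islands of the second DNase list lay inside in 46.3% and 46.6% of cases. The share at an edge was 9.34% and 10.6% for the first DNase list and 17.2% and 19.2% for the second. Outside islands made up 30.7% to 36.5% over the 4 pairs of a DNase and an H3K27ac list, so the share outside moved less between libraries than the split of inside and edge. Each pair used 1 H3K27ac list, so DNase islands under the other list alone counted as outside. All 4 values lay above the 27.3% of the merged sites, which had to miss both H3K27ac lists and to hold islands of both DNase lists. Set against both H3K27ac lists, the single DNase lists had 29.2% and 32.7% outside, also above 27.3%. With the second DNase list left out, 6.34% of the sites lay at an edge, against 16.3% with both. With H3K27ac regions and DNase sites reduced to the bases that both lists covered, the share at an edge was 8.84%.

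Sites outside H3K27ac were narrower and scored lower than sites that touched it. Their median width was 1000 bp, against 1800 bp inside, 2400 bp at an edge and 1400 bp where 1 H3K27ac list alone held an island. Their median score percentile was 29.8 in the first and 34.4 in the second DNase list. Sites inside stood at percentiles 65.9 and 68.4, and sites at an edge at 70.0 and 72.1. The score is the value that the authors' caller gave to each island, and the percentile ranks islands within 1 list.

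The share outside was lower the higher the score. Sites were put into 4 score classes of equal size by mean percentile, from 1 (lowest) to 4 (highest). In class 1, 56.9% lay outside and 30.9% inside. In class 2, 37.3% lay outside, in class 3 13.5% and in class 4 1.55%, where 72.7% lay inside and 24.8% at an edge. Median width also grew over these classes, from 1000 to 2400 bp, so the same split was taken among the 13056 sites of 1 to 2 kb. There 48.6% of the lowest score class and 2.50% of the highest lay outside, with inside shares of 37.0% and 80.7%.

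**Figure D1:**
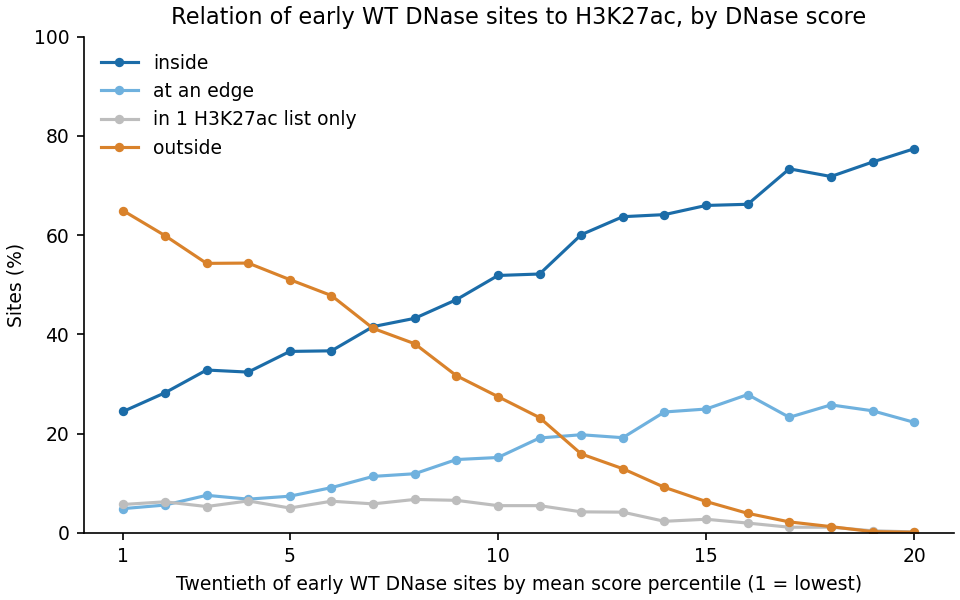
Share of early WT DNase sites in each relation to H3K27ac (y axis, percent of sites) in 20 equal classes of mean DNase score percentile (x axis, lowest to highest, 1679 sites each). Outside sites make up 64.9% of the lowest class and 0.119% of the highest, while inside sites go from 24.5% to 77.4%.

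The 5 inside sites with the highest scores held DNase and H3K27ac islands in every list of the series. No filter for repeated or artefact-prone sequence was applied to the lists here, so whether these islands mark regulatory elements was not tested. A site of 78.4 kb at chr11:3026801-3105200 led the inside class, and DNase islands filled 75 and 78.4 kb of it in the 2 early WT lists. H3K27ac islands filled 78.4 kb of it in both early WT lists and 77.6 to 78.4 kb in the other 6. Next came 2 short sites at chr2:98506201-98507600 and chr2:98502201-98503200, which were filled over their whole 1.4 and 1.0 kb in all 16 lists. Sites at chr8:11553601-11560400 (6.8 kb) and chr5:109981001-109988600 (7.6 kb) followed, with 5.2 and 6.2 kb and with 7.4 and 7.6 kb open in the early WT lists. Of all early WT sites 12031 (35.8%) were overlapped in each of the 16 lists, which outside sites by definition could not be. Of the inside sites 9093 (51.8%) were.

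The edge class joined sites that crossed 1 end of a region with sites wider than the region they held. Of the 5470 edge sites, 3675 (67.2%) lay over 1 end of 1 region, 1732 (31.7%) held a whole region, and 63 touched more than 1 region. The part beyond H3K27ac was short, with a median of 400 bp or 20% of the site, and in 53.1% of the edge sites it was at most 400 bp, which is 2 windows. When a site had to lie at least 400 bp from both ends to count as inside, 34.0% were inside and 34.5% at an edge.

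The edge sites with the highest scores were wide. At chr17:39979801-39986000 the site held the highest score of both lists, 6.2 kb wide, with 6.0 kb of H3K27ac in both lists. A site 30 kb wide at chrX:166409401-166439400 had 29.2 and 20.4 kb of H3K27ac in the 2 early WT lists. Sites at chr9:56917801-56926000 (8.2 kb, with 7.0 and 7.4 kb of H3K27ac), chr11:75266801-75276800 (10 kb, with 9.4 and 9.2 kb) and chr7:26051401-26055800 (4.4 kb, with 4.0 and 4.2 kb) completed the first 5. All 5 held DNase and H3K27ac islands in every list of the other groups, and the lack of a filter for repeated sequence applies to them too. Of all edge sites, 2938 (53.7%) were overlapped in each of the 16 lists. In score class 4, 95.9% to 100% of the edge sites were held by both DNase lists of each other group.

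Within a region that held a single open site, the site lay towards the middle more often than at the ends. The 5251 such sites with at least 2000 bp of free room were placed in 5 equal steps from the nearer end to the middle. The outermost step held 12.5% of the sites, where even placement over all possible windows gives 19.2%, and the innermost step held 24.3%, where even placement gives 20.3%. Over the 4 pairs of single lists the outermost step held 9.04% to 12.9% and the innermost 23.4% to 27%, so each pair had the lower share at the ends. Sites that crossed an end belong to the edge class and are not in these counts. The median distance to the nearer end was 800 bp.

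**Figure D2:**
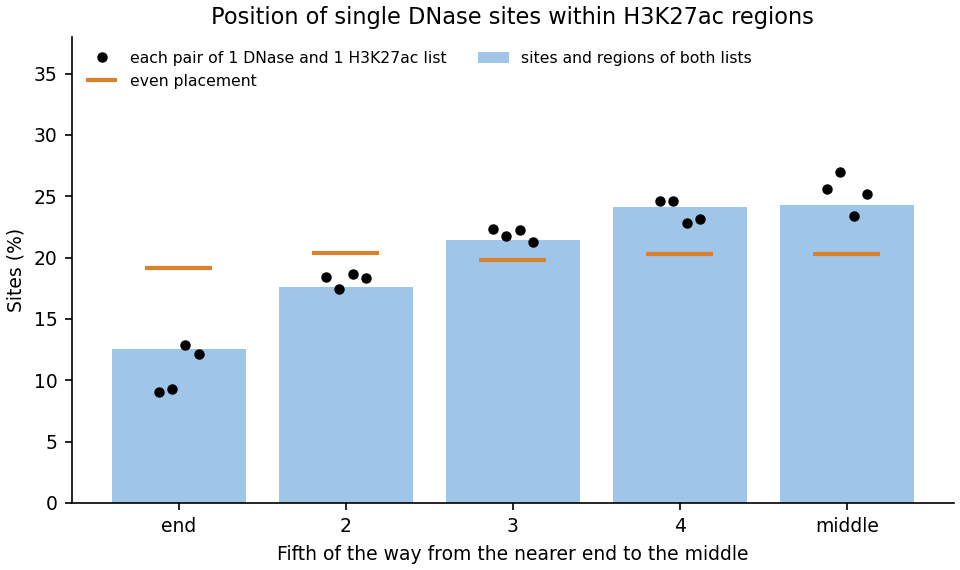
Position of single DNase sites within early WT H3K27ac regions, from the nearer end to the middle (x axis, 5 equal steps) as percent of sites (y axis). Bars show the 5251 sites of both lists, points the 4 pairs of 1 DNase and 1 H3K27ac list, and orange lines even placement; the end step holds 12.5% and the middle step 24.3%.

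Open sites outside H3K27ac lay near acetylated regions more often than the rest of the genome did. Their median distance to the nearest H3K27ac island of either list was 15200 bp, with an interquartile range of 5400 to 39000 bp. Within 5 kb of an island lay 23.6% of the outside sites, against 8.85% of the genome outside the islands. Within 20 kb the shares were 57.7% and 22.8%, and within 100 kb 91.6% and 45.7%. The remaining 770 outside sites (8.4%) stood over 100 kb from any H3K27ac island of early WT cells.

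The 8 outside sites with the highest scores differed in whether another group held the mark there. At chr8:108861601-108863600 DNase islands covered 0.6 and 2.0 kb in the 2 early WT lists (percentiles 97.7 and 98.7), and each of the other 6 DNase lists held at least 0.6 kb. H3K27ac was listed at 0 there in all but late KO replicate 2 (0.8 kb). The site at chr8:126957001-126959000 was filled over its 2.0 kb in both early WT lists and was open in the other 6, and none of the 8 H3K27ac lists held an island. Both sites lay far from H3K27ac of early WT cells, at 75.6 and 84.6 kb.

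A second pattern among these 8 sites was acetylation in every group but early WT. The site at chr12:53883001-53885400, 2.4 kb wide, had 1.6 and 2.4 kb of DNase islands and no H3K27ac in early WT, and all of its 2.4 kb was acetylated in each of the other 6 lists. At chr2:69217001-69220800 (3.8 kb) DNase islands covered 0.4 and 3.8 kb in early WT, and H3K27ac covered 1.8 kb in both early KO lists. It covered 2.4 and 2.8 kb in the late WT lists and 3.0 and 2.2 kb in the late KO lists. The site at chr18:65947801-65949000 was filled by DNase islands over its 1.2 kb in both early WT lists and had 1.0 to 1.2 kb of H3K27ac in the other 6. Since the sites were chosen for having no H3K27ac island in early WT, another list could only hold more.

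The remaining 3 sites had H3K27ac in some lists. At chr7:31501601-31503000 only late KO replicate 1 held an island (1.0 kb). At chr17:56969401-56971200 early KO replicate 1 held 1.4 kb and late WT replicate 2 held 1.2 kb. At chr7:52436601-52438800 early KO replicate 1 held 1.0 kb, and late WT replicate 2 and both late KO lists held 0.6 kb each. In these 3 only late KO at the last site had an island in both replicates of a group.

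Acetylated regions held about 1 open site each, and the mean was higher in each wider class. A wider region has more room for sites, and the number that even placement would give by width is not given here. Of the 24095 regions, 16855 (70.0%) held 1 DNase site, 2532 (10.5%) held 2 or more, and 4708 (19.5%) held none. The mean was 0.718 sites in regions up to 1 kb, 0.775 in regions of 1 to 2 kb, 0.798 in those of 2 to 4 kb and 0.954 in those of 4 to 8 kb. It was 1.52 in the 2061 regions of 8 to 16 kb and 3.20 in the 622 regions over 16 kb (SD over regions 0.834 and 1.83, respectively). Over the pairs of single lists these means ranged from 0.778 to 0.806 at 2 to 4 kb and from 3.79 to 4.29 over 16 kb, and the latter range lay above the mean for sites of both lists. Lists cut to equal length over the series by score gave lower means, 0.530 at 2 to 4 kb and 1.97 over 16 kb.

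Per kb the order was turned round, and 1 site counts for more per kb in a narrower region. Regions up to 1 kb held 0.812 sites per kb, regions of 2 to 4 kb 0.266 and regions over 16 kb 0.123. The share of acetylated bases that was open fell from 64.9% in the narrowest class to 37.3% at 8 to 16 kb, and stood at 39.3% over 16 kb. In each of the 4 pairs of single lists the lowest share was at 4 to 8 kb (27.6% to 41.9%), with 29.3% to 42.8% at 8 to 16 kb and 30.9% to 45.1% over 16 kb. In the widest class 86.5% of regions held 2 or more sites, against 1.67% at 2 to 4 kb. Regions over 16 kb were 2.58% of the regions and held 8.64% of the overlaps with a DNase site. Neighbouring sites inside 1 region were separated by a median gap of 1400 bp (3148 pairs, interquartile range 800 to 3000 bp). The caller had joined windows across gaps of up to 400 bp, so shorter spacings within a list could not be seen.

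The 5 regions with the most open sites were long acetylated domains. At chr2:11078401-11152000, the region with the highest score in both lists, 12 DNase sites lay in 73.6 kb, and DNase islands covered 29.2 and 42.4 kb in the 2 early WT lists. In the other groups DNase islands covered parts of it as well, with 20.6 and 30.8 kb in the early KO lists, 28.8 and 35 kb for late WT and 11.6 and 10.2 kb for late KO, while H3K27ac covered 69.8 to 73.6 kb in all 8 lists. The region at chr12:74770601-74871400, 100.8 kb wide, also held 12 sites, with 13.8 and 31 kb open in early WT. H3K27ac islands covered 99.2 and 96 kb of it in the early WT lists and 73.6 and 77.6 kb in the early KO lists. Late WT lists covered 92.2 and 90.6 kb, and late KO lists 88.4 and 80.6 kb. Regions at chr11:46138001-46222400 (11 sites in 84.4 kb), chr2:167755801-167805200 (10 sites in 49.4 kb) and chr13:51815601-51899400 (10 sites in 83.8 kb) followed. The bounds of these regions came from the early WT lists and the regions were chosen for their early WT sites. Larger cover in early WT than in the other groups was therefore favoured by the choice.

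**Figure D3:**
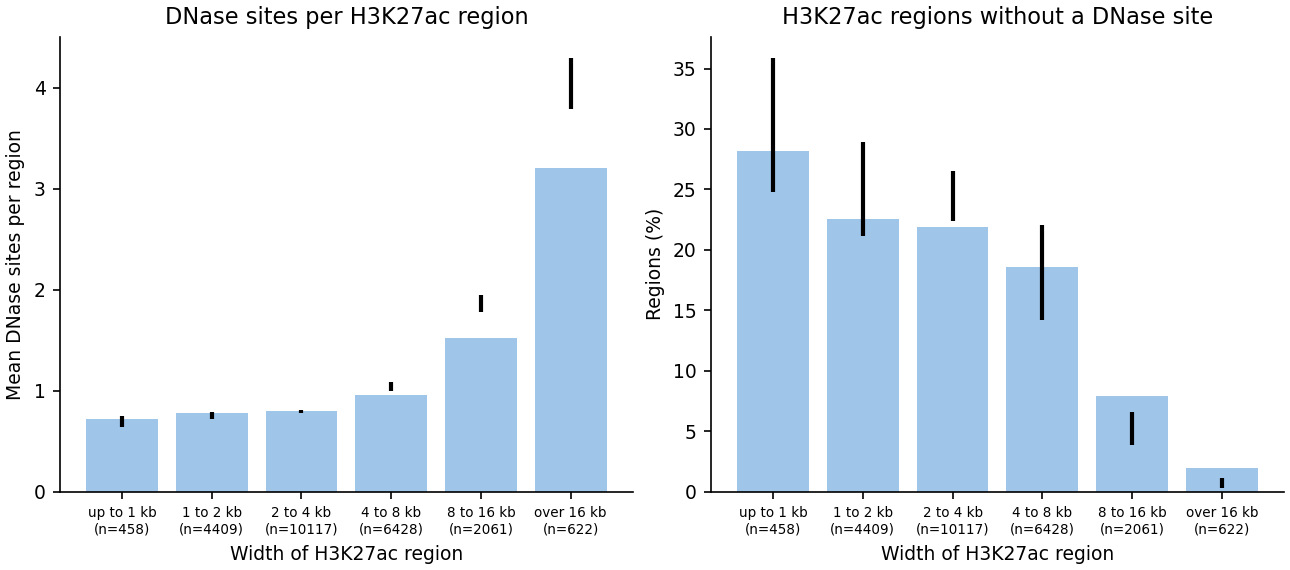
Mean DNase sites per early WT H3K27ac region (left) and percent of regions without a DNase site (right) by width of the region (x axis, with the number of regions). Bars show sites and regions of both lists and black lines the range over the 4 pairs of single lists; means rise from 0.718 to 3.20, and the share without a site falls from 28.2% to 1.93%.

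Regions without an open site had low H3K27ac scores and were only slightly narrower. Their median width was 3000 bp, against 3400 bp for regions with a site, and their median score percentile was 24.0 and 27.1 in the 2 H3K27ac lists, against 62.6 and 64.9. By width the share without a site fell from 28.2% up to 1 kb to 21.9% at 2 to 4 kb, 7.91% at 8 to 16 kb and 1.93% over 16 kb. Here too wider regions have more room to overlap a site. By score it fell over 4 classes of equal size from 50.9% in the lowest to 23.1%, 3.92% and 0.199% (12 of 6024 regions). Among regions of 2 to 4 kb alone the 4 classes gave 52.0%, 22.1%, 3.12% and 0.166%. Over the pairs of single lists 20.1% to 24.4% of H3K27ac islands had no DNase island.

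Some regions without a site did hold a DNase island, but none joined from both lists. Of the 4708, 1307 (27.8%) held such an island, 996 of them one of the second list and 320 one of the first. This leaves 3401 regions (14.1% of all) with no island in either list. The median distance from a region without a site to the nearest DNase site was 8400 bp, and 34.4% had a site within 5 kb. With all lists cut to equal length by score the share of regions without a site was 43.8%.

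The regions without a site that scored highest lay on chromosome Y. The H3K27ac lists of early WT cells held 13 and 14 islands on that chromosome, the other 6 held 11 to 16, and none of the 8 DNase lists held any. The lists do not tell whether DNase islands could have been called there. All 11 early WT regions on it were therefore counted as without a site, among them chrY:2875001-2902600 (27.6 kb, percentiles 99.4 and 94.8), chrY:2847401-2864000 (16.6 kb), chrY:2779601-2786400 (6.8 kb) and chrY:579601-582800 (3.2 kb). Without chromosome Y, an alternative chosen after seeing the data, the share without a site was again 19.5%. The region at chr5:86499401-86506200 came next, with 6.2 and 6.0 kb of H3K27ac, no island in the first DNase list and 1.4 kb in the second.

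Other wide regions without a site differed in whether any DNase list held an island there. At chr5:54021201-54042000 H3K27ac covered 20.2 and 19 kb in early WT and 19 to 20.8 kb in the other 6 lists, and none of the 8 DNase lists held an island. At chr18:24025001-24050400 it covered 23.8 and 24.4 kb in the early WT lists and 4.0 and 10 kb in the early KO lists, with a DNase island in late WT replicate 2 alone (2.4 kb). At chr12:17739001-17763200 it covered 20.6 and 17 kb in the early WT lists against 4.8 to 13.4 kb in the lists of the other groups. There 1.4 kb was open in the second early WT list, 0.6 kb in early KO replicate 2 and 1.2 kb in late KO replicate 1. The region at chr17:84750201-84770000 (19.8 kb) had 2.4 kb open in that list, none in the first, and 3.2 kb in early KO replicate 2. These regions were chosen for their width in early WT, and their bounds came from the early WT lists. H3K27ac of the other groups beyond those bounds was not counted, so wider cover in early WT was favoured by the choice.

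Chromosome X had the lowest share of open sites outside H3K27ac. This share ran from 24.9% on chromosome 11 to 30.3% on chromosome 19 over the autosomes, and was 18.1% of 629 sites on X. The share of regions without a site ran from 15.4% on chromosome 7 to 24.2% on chromosome 6, with X between them at 18.6%. H3K27ac regions covered 1.17% of the span of X, and 3.12% to 8.76% of the span of the autosomes. In each of the 4 pairs of single lists X had a lower share outside than the lowest autosome. The values for the first DNase list were 24.4% on X against 30.3% on the lowest autosome, and 21.5% against 28.1%. For the second DNase list they were 30% against 33.2%, and 27% against 31.1%.

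The same shares were taken in the other groups, each DNase library against the H3K27ac regions of its own group. In early WT 29.2% and 32.7% of DNase islands lay outside, in early KO 10.7% and 22.0%, in late WT 13.6% and 22.7% and in late KO 7.42% and 6.60%. The early WT libraries had the 2 highest values of the 8 and did not overlap with the rest. The mean outside was 30.9% ± 2.4 in early WT (SD, n = 2) and 13.9% ± 7.1 in the others (SD, n = 6). The others joined early KO, late WT and late KO, with means of 16.4%, 18.2% and 7.01%. Their SD therefore holds differences between groups as well as between libraries, and the libraries of a group were set against the same H3K27ac regions. The exact two-sided permutation p was 0.0714, and 0.143 adjusted over 4 shares by Benjamini-Hochberg. Inside islands averaged 55.2% ± 7.1 in early WT and 74.9% ± 9.3 in the others (SD, n = 2 and 6, exact two-sided permutation p = 0.0714, adjusted p = 0.143). The smallest p that 2 libraries against 6 allow is 0.0714, so neither difference could pass 0.05.

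The share at an edge was 9.5% ± 4.5 in early WT and 8.0% ± 2.3 in the others (SD, n = 2 and 6, exact two-sided permutation p = 0.571, adjusted p = 0.571). H3K27ac regions without a DNase island of the library made up 16.9% ± 2.0 in early WT and 31.6% ± 13.3 in the others (SD, n = 2 and 6, exact two-sided permutation p = 0.214, adjusted p = 0.286). Both values overlapped between the groups.

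List length moved with these shares, and the early WT DNase lists were among the longest. The 2 late KO lists held 18812 and 17397 islands. Early KO replicate 1 (24286) and late WT replicate 1 (27416) had lower shares outside than their replicates (37956 and 36963 islands). Among lists of near length, early WT replicate 1 (37525 islands) had 29.2% outside, early KO replicate 2 had 22.0% and late WT replicate 2 had 22.7%. When each DNase list was cut to its 17397 highest scores and each H3K27ac list to 26548, the share outside was 8.63% and 8.67% in early WT and 6.01% to 7.70% in the others (exact two-sided permutation p = 0.0714, n = 2 and 6). The difference of 17.1 percentage points became 1.94. This cut also took out the low scores, where outside sites of early WT were most common, and the part of list length was not tested. Inside islands were then 80.2% and 69.4% in early WT and 79.3% to 86.3% in the others (exact two-sided permutation p = 0.143, n = 2 and 6). For sites held by both lists of equal length, a comparison added after the data were seen, 7.28% lay outside in early WT, 4.83% in early KO, 4.97% in late WT and 4.94% in late KO.

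**Figure D4:**
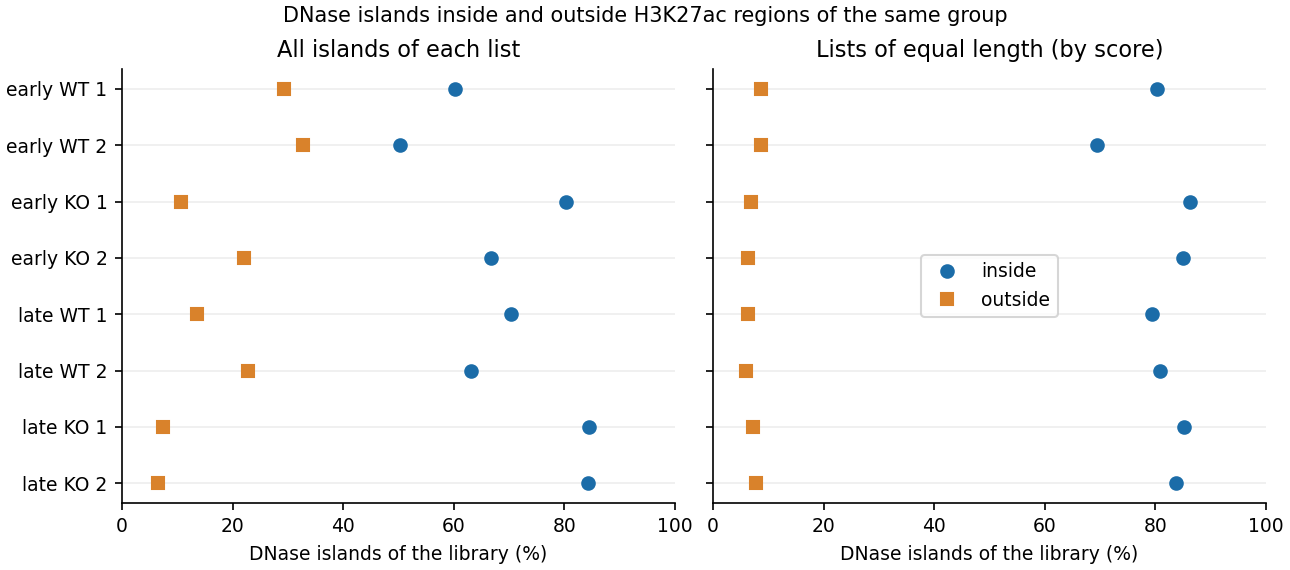
Percent of DNase islands inside (circles) and outside (squares) the H3K27ac regions of the same group (x axis) for each DNase library (y axis), with whole lists on the left and lists cut to equal length on the right. The squares of early WT, at 29.2% and 32.7%, lie right of the others with whole lists, and at 8.63% and 8.67% with equal lists.

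Open sites of early WT cells that lay outside H3K27ac were found less often in the other groups than sites inside. An island of both early KO DNase lists overlapped 74.4% of the inside, 77.5% of the edge and 35.1% of the outside sites, where 63.0% of all early WT sites were found. For both late WT lists the shares were 83.4%, 84.7% and 44.6%, with 72.0% over all sites. Both late KO lists held 54.7%, 56.3% and 11.7%, with 41.8% over all sites. No test was run on these shares, and the groups have 2 libraries each. Single lists differed widely: early KO replicate 1 held 36.2% of the outside sites and replicate 2 held 73.4%, late WT replicates held 46.4% and 72.4%, and late KO replicates 19.5% and 15.7%. With lists of equal length 53.9% of the outside sites then left were found in the late KO lists on average, against 17.6% with whole lists.

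At a like score the classes lay closer together. In score class 3 both early KO lists held 90.1% of the inside and 85.3% of the outside sites, and both late WT lists held 96.4% and 92.2%. In class 1 these shares were 19.7% and 15.7% for early KO and 37.2% and 23.0% for late WT. For both late KO lists they were 8.10% and 3.93% in class 1, 54.8% and 38% in class 3, and 95.8% and 86.2% (of 130 outside sites) in class 4. The gap of late KO in class 3 was the widest of any group at a like score. Outside sites had a lower share than inside sites in each of the 4 score classes and all 3 groups. Over all scores, 1187 outside sites (12.9%) had no island in any of the 6 other DNase lists, against 5.77% of all sites. That share was not taken at a like score.

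Most outside sites had no H3K27ac island in the lists of the other groups either. Both early KO H3K27ac lists held an island over 17.4% of the outside sites, where 73.2% of all early WT sites had one. Both late WT lists held one over 15.4% (71.1% of all sites) and both late KO lists over 20.3% (71.9% of all sites). Inside sites had one in 96.2%, 94.2% and 93.2% of cases. The share of outside sites with an island of both lists grew with the DNase score. It went from 12.3% in the lowest to 45.4% in the highest score class for early KO. For late WT it went from 11.3% to 36.9%, and for late KO from 14.9% to 50.8%. In all, 5601 outside sites (61.1%) had no H3K27ac island in any of the 6 other lists, against 17.7% of all sites. Of these, 229 (2.50% of the outside sites) were open in all 6 other DNase lists. All 6 other DNase lists held an island at 847 outside sites (9.24%) and at 9192 inside sites (52.4%). The shares for all 6 lists were not taken at a like score, and outside sites scored lower than inside sites. How much of this contrast goes with the score was therefore not tested. By definition only outside sites could lack H3K27ac in all 8 lists, so the 229 have no counterpart in the other classes.

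**Figure D5:**
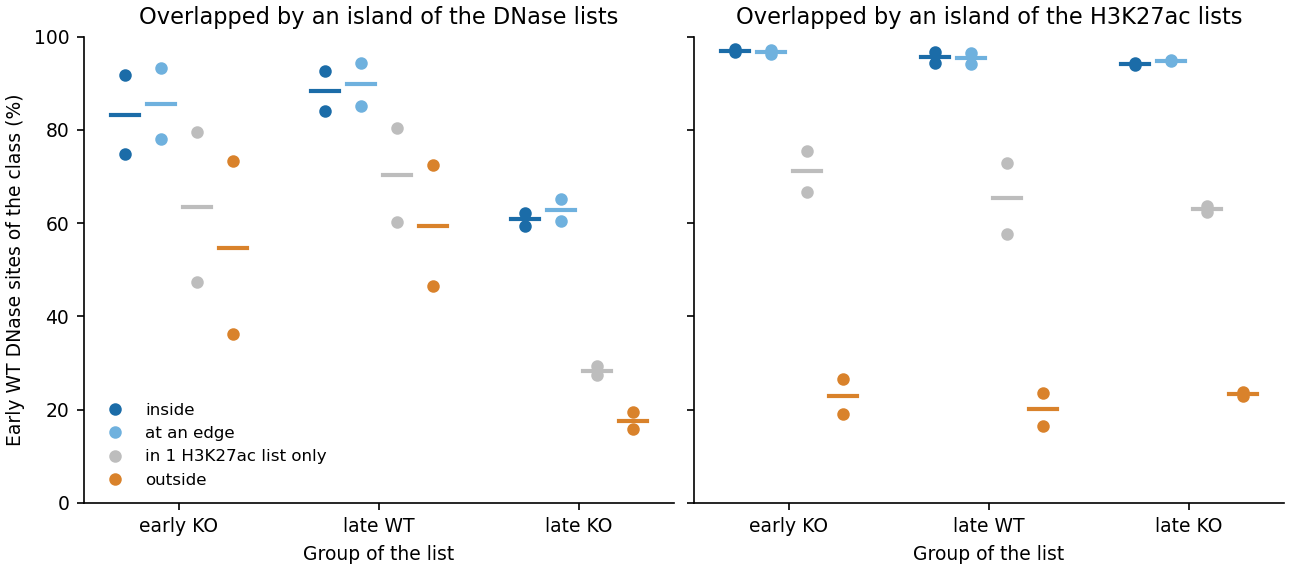
Percent of early WT DNase sites of each class (y axis) that an island of each DNase list (left) or H3K27ac list (right) of another group overlaps (x axis), with a point per list and a line at the mean of 2. Outside sites lie lowest in each group, at 15.7% to 73.4% for DNase and 16.6% to 26.6% for H3K27ac.

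Regions without an open site in early WT seldom held islands of both DNase lists of another group. Fewer of them held H3K27ac in the other groups than of the regions with a site. Both early KO DNase lists held an island in 5.29% of them, where 64.8% of all regions had one, and the late WT lists in 8.50% (71.1% of all regions). For late KO the share was 2.44% (48.6% of all regions). In 3015 of the 4708 (64.0%) none of the 6 other DNase lists held an island, against 14.4% of all regions. None of the 8 lists held one in 2565 (54.5%), which by definition no region with a site could show. Both H3K27ac lists held an island over 66.3% of these regions in early KO (90.8% of all regions), 58.6% in late WT (87.6%) and 54.9% in late KO (86.2%). Regions with a site had one in 96.7%, 94.6% and 93.8% of cases. All 6 other H3K27ac lists covered 2086 of the regions without a site (44.3%), against 82.3% of all regions. These regions scored lower than the rest, and the part of the score in these shares was not tested.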

How the data were processed

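The submitters' processing notes name CASAVA 2.18, Bowtie2, SICER 1.1 and the build mm9. The deposited lists give the position of each island and a score, the authors' own value, used here only to rank islands within a list. Names given to the lists carry a window of 200 bp, a gap of 400 bp, an E value of 1 (a threshold of the caller) and a tag for removed duplicates. Use of a control library is not given in the sources used here, and neither is depth. Sites and regions were merged islands with an island of both lists, and an overlap of 1 bp counted. Groups and replicate numbers came from the labels. The members and settings were chosen with earlier results of these data known. Regions were named by fixed rules: the sites with the highest mean score percentile (5 inside, 5 at an edge, 8 outside), the 5 regions with the most sites, and the 5 widest and 5 highest scoring regions without a site. Genes and sequences were not analysed here, since the gene and promoter tables at hand are of another build. Shares per library were compared with exact permutation tests. The p-values measure only the spread between these libraries, which may be technical and, among the other groups, includes differences between groups. Even placement was computed from the windows free in each region. The overlap code was tested on simulated data. Python 3.11.15, numpy 2.4.6, pandas 2.3.3, scipy 1.17.1, statsmodels 0.14.6 and matplotlib 3.10.9 were used. Alternatives were other rules for merging, for edges and for overlap, the upper 50% of each list, lists of equal length, and each library left out.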

Additional observations from a re-analysis of the deposited data

How the results depend on the processing

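For the shares of early WT sites and regions and the sites per region, 25 of 62 values under alternatives stayed within 1 SD over library pairs. For outside sites found in other groups, 9 of 12 stayed within 1 SD of the 2 lists of that group; this SD is wide for early KO (26.3 points) and late WT (18.4 points), where equal length gave 72% and 69.1%. The differences between groups could not pass 0.05 under any alternative, so their p-values show nothing of stability; the difference outside was 12.9 points with the upper 50% of each list and 1.94 at equal length. Bases covered in both lists as regions gave 59.5% of sites inside and 8.84% at an edge, 0.825 sites per region of 2 to 4 kb, 4.57 over 16 kb, and 23.3% of regions without a site. Regions of at least 1 list gave 34.7% of sites outside and 3.61 sites over 16 kb. Merging within 1 kb gave 2.66 sites over 16 kb and 17.5% of regions without a site. The upper 50% of each list gave 0.860 and 2.21 sites at 2 to 4 kb and over 16 kb, and 14.8% without a site. Lists of equal length gave 67.7% inside, 23.1% at an edge, 7.28% outside, 0.530 and 1.97 sites, 43.8% without a site, and 53.9% of outside sites found in late KO. By midpoint 67.5% were inside, and with a margin of 400 bp 34.0% were inside and 34.5% at an edge. Counting islands of either DNase list, 14.1% of regions had no site. With 50% of a site to be covered, 12.6% of outside sites were found in late KO. The cause of these moves was not tested, beyond the shorter lists and changed definitions themselves.

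With 1 early WT library left out the share inside was 47.3% to 60.3%, at an edge 6.34% to 24.1%, outside 28.6% to 32.7%, and without a site 15.4% to 25.8%. Sites per region were 0.743 to 0.854 at 2 to 4 kb and 3.37 to 3.92 over 16 kb. Outside sites found in late KO were 13.9% to 15.8%. Over 53621 bins of 10 kb, the difference between replicates 1 and 2 of early WT DNase correlated at 0.00889 with that of early WT H3K27ac, 0.136 with DNase of early KO, 0.0554 of late WT and 0.00183 of late KO. Not all reached 0.1, so the libraries were taken to share only a number. With the same-numbered H3K27ac library for each DNase library, early WT differed from the other groups by -20.4 points inside and 17.9 points outside. With labels exchanged within replicate numbers as a block, an alternative chosen after seeing the data, the exact two-sided permutation p was 0.125 for each share (n = 2 and 6), the smallest that 16 arrangements can give. Depth is unknown, so sites or regions missed for lack of reads cannot be counted.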

Other observations

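Outside sites sometimes came in groups, a pattern looked for after the data were seen. Of the 9170 outside sites, 2252 (24.6%) had another within 10 kb, and 7 groups held at least 5. The same share was not taken for all DNase sites or for inside sites. Whether outside sites group more than open sites in general was therefore not tested. The largest group held 9 sites in 43.6 kb at chrX:47933401-47977000. The other 6 groups held 5 sites each, over 19.4 to 30.8 kb.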
